A study of Mus musculus with 12 samples.

Results

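The clustered histone genes are the protein-coding genes of the mouse Hist1, Hist2, Hist3 and Hist4 loci. They encode the linker histone H1 and the core histones H2A, H2B, H3 and H4. A gene was taken as a member when its name marked it as one of these loci and its counts over the 12 libraries summed to at least 60. The count table lists 56350 genes, 67 of them protein-coding genes of these loci, and 54 qualified: 5 for H1, 13 for H2A, 14 for H2B, 10 for H3 and 12 for H4. Just inside the limit were Hist1h2af with 77 counts, Hist1h4m with 84 and Hist2h3c2 with 86. Just outside it were Hist1h2br with 39, the testis linker gene Hist1h1t with 17 and Hist2h2ab with 14. Of the 13 genes left out 7 had no count at all, Hist2h2aa1 and Hist2h2aa2 among them. The members were thus selected on their summed counts, and that a member is detectable is no finding. The treatment groups did not enter the rule.

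RNA was measured by sequencing in whole bone marrow cells of 12 mice of 1 genotype, Shp2E76K/+;LysM-Cre+, on a C57BL/6 background and 12 to 14 weeks old, of both sexes. Shp2E76K is an activating allele of the phosphatase Shp2, and LysM-Cre is a Cre recombinase driven from the Lyz2 locus in myeloid cells, so the allele is switched on mainly in that lineage while whole marrow holds other lineages too. The mice, a model of juvenile myelomonocytic leukaemia, formed 4 groups of 3. They received vehicle, the MEK inhibitor PD0325901 (PD-901, 5 mg/kg by mouth, 20 doses), the hypomethylating cytidine analogue 5-azacitidine (5 mg/kg into the peritoneum, 5 doses), or both drugs at these doses (the combination), over 4 weeks. No mouse without the Shp2 allele is among the libraries, and each library is 1 mouse.

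Most core and linker histone mRNA is made in S phase, when new DNA has to be packaged. The core histones H2A, H2B, H3 and H4 form the nucleosome, and H1 binds where the DNA enters and leaves it. The mRNAs of these genes have no introns as a rule and end in a short stem-loop, bound by the protein Slbp, in place of a poly(A) tail. Some of the genes, Hist1h1c, Hist1h2bc and Hist2h2be among them, are also known to give polyadenylated mRNA in cells that have stopped dividing. A library primed on poly(A) tails takes up little mRNA that ends in a stem-loop. The labels name a low-input kit but not how it was primed, so the levels below are those of the RNA that was captured and need not be those of all histone mRNA.

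Depth ran from 15356919 to 27148190 counts per library, and the members together took 0.016% to 0.0509% of them. Levels are counts scaled to a common library size (CPM) with TMM factors, and 3 counts corresponded to 0.109 to 0.198 CPM. Libraries stood apart in 3 ways. PD-901 replicate 1 had the highest member share, 0.0509%, against 0.016% to 0.032% in the other 11. In 5-azacitidine replicate 1, the shallowest, 13 members had 0 counts against 0 to 3 in the others. Lyz2 was at 44.9 to 172 CPM in vehicle replicates 1 and 2 and combination replicates 1 and 2 and at 699.6 CPM or more in the other 8. Xist, expressed from the inactive X of females, was above 10 CPM in all 3 vehicle libraries, in 2 with PD-901, in 1 with 5-azacitidine and in none with the combination, so sex moved with treatment. Dusp6, a known target gene of MEK signalling, was at 173 to 218 CPM with vehicle, 179.5 to 225 with PD-901, 116 to 233 with 5-azacitidine and 21.2 to 45.6 with the combination. Genes that define marrow lineages were present in every group, for example Mpo, the myeloperoxidase of promyelocytes, at 2264 to 4413 CPM and the β-globin gene Hbb-bs at 169.6 to 1527 CPM.

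The sequences that mark these genes as a family are the stem-loop at the end of the mRNA and short promoter motifs. A sequence fitting the histone stem-loop was found in the annotated transcript of 40 of the 54 members (GENCODE M21, build GRCm38), against 24 of 21542 other protein-coding genes (0.111%). The 2 most frequent forms and that of Hist1h4i, the most abundant core histone gene, are shown because they separate H4 from the other classes. The capitals are the 16 bases of the stem-loop, and the T stands for U in the RNA.
Stem-loop of Hist1h1c and 21 others for H1, H2A, H2B and H3, here chr13:23739512-23739527, plus strand: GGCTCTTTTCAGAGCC
Stem-loop of Hist1h4n and 6 other H4 genes, here chr13:21831798-21831813, minus strand: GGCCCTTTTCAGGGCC
Stem-loop of Hist1h4i and Hist2h4, here chr13:22040966-22040981, minus strand: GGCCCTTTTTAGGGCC
The first form was not found in an H4 transcript, and the other 2 were found in H4 transcripts only. A further 5 transcripts of H2B and H3 genes held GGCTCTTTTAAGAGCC.

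Promoter windows of 300 bases, from 250 before to 50 after the start, were taken from RefSeq (GRCm38.p6). All 54 members matched a RefSeq gene and 49 had a window, 50 windows in all. Both strands were searched for 4 motifs. Members that start close together on opposite strands, such as Hist1h2ae and Hist1h2bg, have overlapping windows. A site in the overlap counts for both genes, so the windows are not independent. CCAAT was in 42 of 50 windows (84%) against 37.4% of 32851 windows of all genes. TATAAA was in 31 (62%) against 13.6%. The octamer ATTTGCAT, known from H2B promoters, was in 11 (22%) against 1.74%, 6 of them in H2A and 5 in H2B windows. Hist1h2ae and Hist1h2bg share the same octamer site, as do Hist1h2ah and Hist1h2bk. AAACACA, known as the H1 box, was in 6 (12%) against 7.18%, and 4 of the 5 H1 windows held it. The search letters do not contain one another. The windows of 3 genes on which the results below turn are printed, with the motif matches in capitals on either strand.
Hist1h1c promoter, chr13:23738557-23738856, plus strand: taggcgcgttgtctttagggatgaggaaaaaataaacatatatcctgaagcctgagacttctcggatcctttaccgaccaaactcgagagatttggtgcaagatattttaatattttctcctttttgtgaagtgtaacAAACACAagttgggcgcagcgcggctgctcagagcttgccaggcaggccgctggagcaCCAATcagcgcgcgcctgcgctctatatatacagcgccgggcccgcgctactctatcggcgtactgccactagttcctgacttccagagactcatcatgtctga
Hist1h2ac promoter, chr13:23683910-23684209, minus strand: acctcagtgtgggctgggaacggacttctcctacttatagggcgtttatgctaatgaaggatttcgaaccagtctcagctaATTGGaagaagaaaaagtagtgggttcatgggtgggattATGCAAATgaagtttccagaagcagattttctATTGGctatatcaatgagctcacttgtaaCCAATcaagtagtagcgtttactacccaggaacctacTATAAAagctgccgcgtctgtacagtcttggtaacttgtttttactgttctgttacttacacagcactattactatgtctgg
Hist1h4i promoter, chr13:22041313-22041612, minus strand: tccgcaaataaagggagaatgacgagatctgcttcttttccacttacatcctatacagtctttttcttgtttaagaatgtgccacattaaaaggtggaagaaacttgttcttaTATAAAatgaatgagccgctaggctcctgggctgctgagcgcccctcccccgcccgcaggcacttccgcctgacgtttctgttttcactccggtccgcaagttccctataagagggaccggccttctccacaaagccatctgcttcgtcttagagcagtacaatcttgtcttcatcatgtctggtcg
The Hist1h1c window held 1 CCAAT and 1 AAACACA. The Hist1h2ac window spans the whole gap to its neighbour Hist1h2bc, which is transcribed away from it, and held 3 CCAAT, 1 ATTTGCAT and 1 TATAAA. The Hist1h4i window held 1 TATAAA and none of the other 3 motifs.

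Of the 54 members 47 lie on chromosome 13, 4 on chromosome 3, 2 on chromosome 11 and 1 on chromosome 6. On chromosome 13 a group of 20 at 21715763 to 22043676 took 19.2% of the member counts, and a group of 27 at 23531050 to 23764406 took 73.4%. In 10 places a minus-strand and a plus-strand member start within 1000 bases of each other, and in 9 of these an H2A gene is paired with an H2B gene.

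One linker gene dominated the signal. Hist1h1c (chr13:23738808-23740367, plus strand) took 24.1% to 55.7% of the member counts of a library and averaged 71.4 CPM per kb of exon, the scale on which genes are compared here. Next were Hist1h4i at 35.4 CPM per kb and the H2B genes Hist1h2bc at 14.8, Hist1h2bg at 10.5 and Hist1h2bj at 7.03 CPM per kb. The most abundant H3 gene, Hist1h3c, averaged 6.20 CPM per kb and the most abundant H2A gene, Hist1h2ak, 3.76. The median member averaged 2.21 CPM per kb, or 1.40 CPM. For comparison, the replication-independent variant H2afz averaged 321 CPM per kb. The order below Hist1h1c and Hist1h4i depends on gene models of unequal length, since the annotated exons of Hist1h1d (7425 bases) and Hist1h2be (4446 bases) run far past the coding part. Other models are short: Hist1h2ak, first of the H2A genes on this scale, had 365 counts on an annotated transcript of 393 bases. Hist1h2ac had 1402 counts on 2482 bases.

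**Figure D1:**
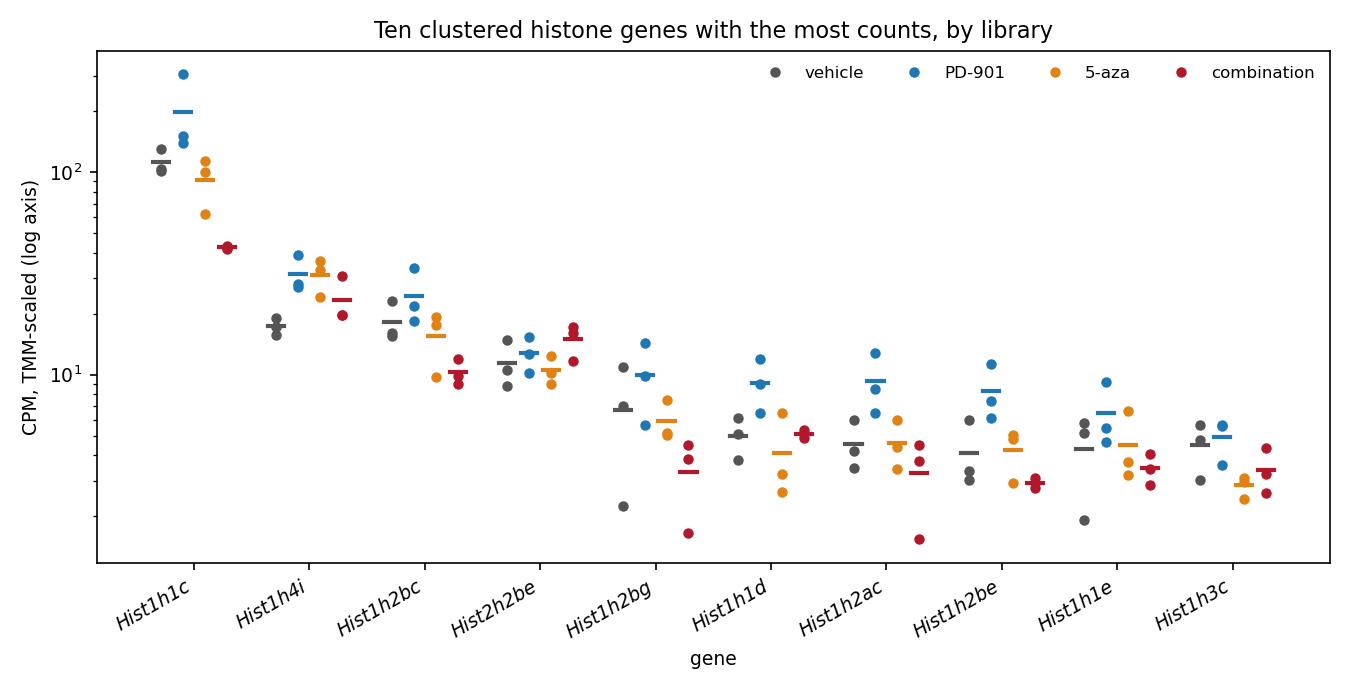
Level in CPM (log axis) of the 10 clustered histone genes with the most counts. Points are libraries (3 mice a group) and bars are group means. Combination libraries lie lowest for Hist1h1c, at 41.7 to 43.3 CPM, and PD-901 replicate 1 is the highest point for Hist1h1c at 306 CPM.

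In the sum over the linker genes, the levels were 146, 111 and 117 CPM with vehicle, 329.5, 157 and 167 with PD-901, 80.0, 108 and 124 with 5-azacitidine and 57.0, 53.8 and 52.9 with the combination. All 3 combination libraries lay below the other 9, and the PD-901 libraries lay above the rest. Without Hist1h1c the linker sum was 12.7 ± 3.02 CPM with vehicle, 19.2 ± 4.19 with PD-901, 11.9 ± 5.12 with 5-azacitidine and 12.1 ± 1.39 with the combination (SD, n = 3), so the gap between the combination and vehicle was that of Hist1h1c. The H4 sum was 30.7 ± 1.57, 47.5 ± 11.2, 44.7 ± 10.03 and 34.1 ± 5.68 CPM in the same order of groups (SD, n = 3). Libraries with vehicle, at 29.3 to 32.4 CPM, lay below those of either drug alone, at 34.4 CPM or more. Without Hist1h4i, the H4 sum was 13.4, 16.2, 13.6 and 10.8 CPM on average, with PD-901 still highest and the combination, in place of vehicle, lowest.

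For the H2A genes the sums were 18.99 ± 3.95 CPM with vehicle, 26.2 ± 6.74 with PD-901, 14.6 ± 3.68 with 5-azacitidine and 14.7 ± 3.34 with the combination (SD, n = 3). For H2B they were 55.4 ± 0.24, 72.6 ± 20.6, 46.9 ± 10.6 and 45.1 ± 2.88 CPM in that order. For H3 they were 17.6 ± 5.57, 23.0 ± 5.56, 13.7 ± 4.195 and 15.2 ± 2.57 CPM. The group means of the 3 classes had PD-901 highest, and the libraries of vehicle and PD-901 overlapped for H2A and H3. Over all members but Hist1h1c the sum was 136 ± 8.63, 188 ± 47.4, 132 ± 22.49 and 121 ± 13.4 CPM, with 243 CPM in PD-901 replicate 1 and 161 and 162 CPM in the other 2.

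**Figure D2:**
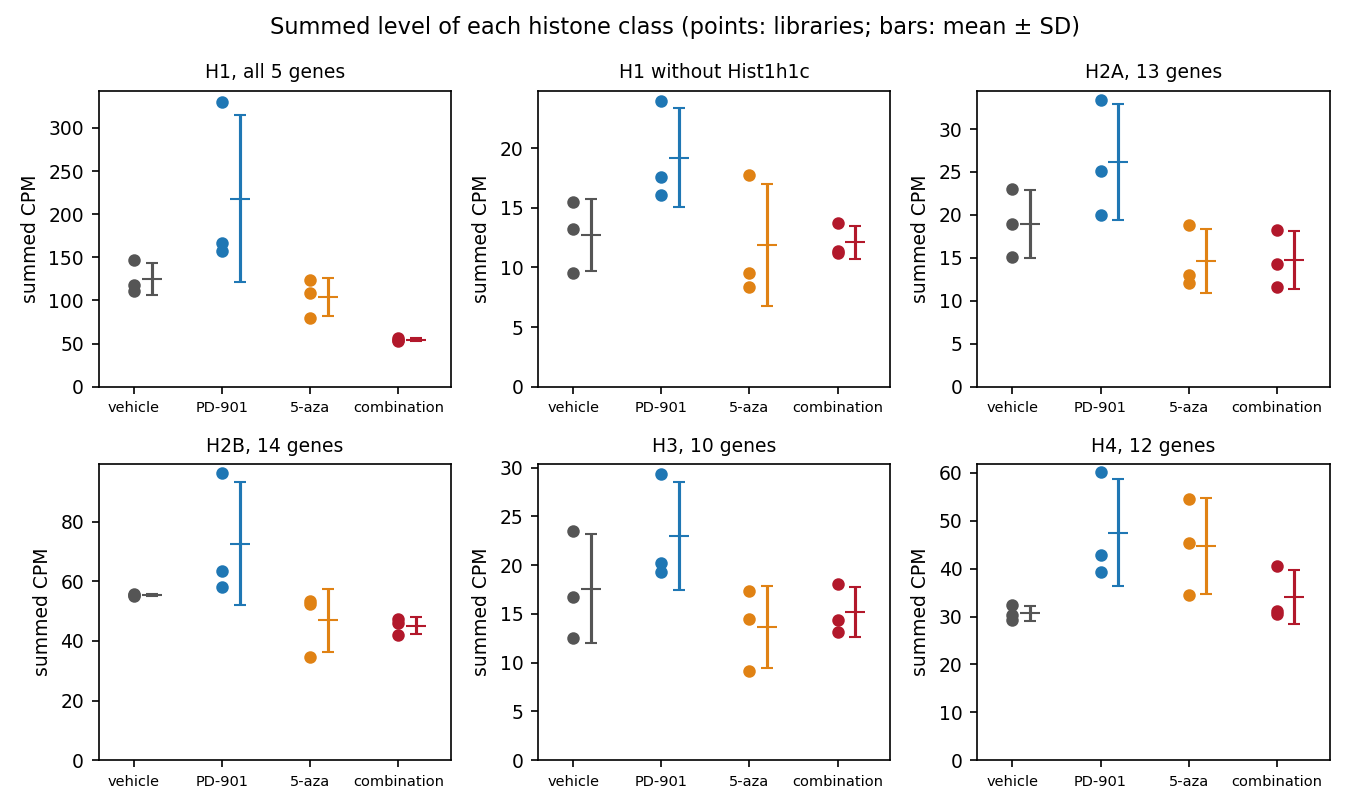
Summed CPM of each histone class in each library (points, 3 mice a group) with the group mean and SD (bars). The H1 sum averages 54.6 CPM with the combination and 125 CPM with vehicle, and without Hist1h1c 12.1 and 12.7 CPM.

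The effect of the MEK inhibitor alone was asked by comparing PD-901 with vehicle. In edgeR's quasi-likelihood test, with Benjamini-Hochberg adjustment over 17475 genes, no clustered histone gene passed an adjusted p of 0.05 (52 of the 54 were tested, Hist1h2af and Hist1h4m having too few counts). No gene of the whole table passed in either direction (0% higher and 0% lower). At an unadjusted p under 0.05, 5 members were higher and 0 lower, where 2.71% of all genes were higher and 2.17% lower. These were Hist1h1c, Hist1h1d, Hist1h2ac, Hist1h2be and Hist1h4i. DESeq2 and limma-voom called no member either. The log2 changes of 38 of 52 members were positive, with a median of 0.37 against 0.01 over all genes tested, and the members' median SE was 0.73 against 0.28. Much of that shift came from PD-901 replicate 1: without it the members' median was 0.10 and the log2 difference of Hist1h1c, given below, 0.38. Xist was at 1.19 CPM in this library, against 343 and 148 CPM in the other PD-901 libraries and 138 to 724.5 with vehicle. With sex as a covariate the members' median was 0.19. In these 2 groups the part of sex and that of this 1 mouse cannot be told apart.

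Hist1h4i encodes histone H4. It was at 17.3, 18.98 and 15.7 CPM with vehicle, 38.9, 27.0 and 28.2 with PD-901, 24.1, 32.7 and 36.5 with 5-azacitidine and 30.6, 19.7 and 19.7 with the combination. All 9 treated libraries lay above the 3 vehicle libraries, and 2 of the 3 combination libraries lay nearest to them. The log2 difference from vehicle was 0.86 ± 0.22 (SE) with PD-901, 0.85 ± 0.22 with 5-azacitidine and 0.43 ± 0.22 with the combination, with edgeR adjusted p of 0.96, 0.13 and 0.22. The 3 differences share their vehicle libraries. None passed the test in edgeR with the low-count filter. DESeq2 called the 5-azacitidine difference (log2 0.84, adjusted p 0.0197).

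Hist1h1c encodes the linker histone H1.2. It was at 131, 102 and 104 CPM with vehicle, 306, 139.6 and 151 with PD-901, 62.2, 99.8 and 114 with 5-azacitidine and 43.3, 42.4 and 41.7 with the combination. All 3 combination libraries lay below the other 9 and close together, the PD-901 libraries lay above every other, and vehicle and 5-azacitidine overlapped. The log2 difference of PD-901 from vehicle was 0.83 ± 0.27 (SE), with an edgeR unadjusted p of 0.00817 and an adjusted p of 0.96.

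Among the other linker genes, Hist1h1d (H1.3) was at 6.10, 5.08 and 3.79 CPM with vehicle and at 11.9, 8.97 and 6.48 with PD-901, and the 2 groups did not overlap. Its log2 difference was 0.87 ± 0.35 (SE, edgeR adjusted p 0.96). Hist1h1e (H1.4) averaged 4.28 ± 2.07 CPM with vehicle and 6.45 ± 2.46 with PD-901, and these overlapped. Hist1h1b (H1.5) and Hist1h1a (H1.1) were near 2 and 1 CPM in every group, with log2 differences of 0.23 ± 0.46 and -0.30 ± 0.70. In all, the libraries of PD-901 and vehicle did not overlap for 6 members higher and 1 lower, where 6.83% and 5.93% of all genes did not.

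The effect of 5-azacitidine alone was asked by comparing it with vehicle. No clustered histone gene passed the edgeR test, where 0.00572% of all genes were called higher and 0% lower. At an unadjusted p under 0.05, 1 member was higher, Hist1h4i, and 1 lower, the H3 gene Hist1h3f, where 8.08% and 7.22% of all genes were. DESeq2 called Hist1h4i alone of the 27 members to which it gave an adjusted p. Over all 12729 genes with one, it called 291 higher and 322 lower. The limma-voom fit called no member. Hist1h3f was at 0.82, 1.63 and 2.53 CPM with vehicle and 0, 0.81 and 0.46 with 5-azacitidine, a log2 difference of -1.94 ± 0.87 (SE, edgeR adjusted p 0.305). Its 0 was in replicate 1, the shallow library in which 13 members had no count and where 3 counts would be 0.198 CPM. The changes of 35 of 52 members were negative, with a median of -0.21 against -0.01 over all genes. That median was -0.05 without 5-azacitidine replicate 1, -0.10 without replicate 2, -0.43 without replicate 3 and -0.08 without vehicle replicate 3. Libraries did not overlap for 1 member higher and 5 lower, the 5 being Hist1h2ak, Hist1h2an, Hist1h2bj, Hist1h2bk and Hist1h3f, beside 10.8% and 9.77% of all genes.

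With both drugs, 1 clustered histone gene fell against vehicle in edgeR's test and none rose, where 5.78% of all genes were called higher and 7.97% lower. It was Hist1h1c, which fell by 1.40 ± 0.27 (SE) on the log2 scale, 2.64-fold (adjusted p 0.00634), from 112 ± 16.2 to 42.5 ± 0.79 CPM (SD, n = 3). Of the core histone genes Hist1h2bc, an H2B gene, had the lowest p, with a log2 difference of -0.83 ± 0.28 (edgeR adjusted p 0.0637), which DESeq2 called (adjusted p 0.0242). It was at 23.1, 15.5 and 16.1 CPM with vehicle and 9.87, 8.97 and 11.9 with the combination, and the 2 groups did not overlap. The changes of 33 of 52 members were negative, with a median of -0.34 against 0.01 over all genes, which was -0.15 without vehicle replicate 3 and -0.18 without combination replicate 3. At an unadjusted p under 0.05, 0 members were higher and 2 lower, beside 12.9% and 14.5% of all genes. Libraries did not overlap for 2 members higher, Hist1h2bp and Hist1h4i, and 8 lower, beside 16.1% and 15.9% of all genes.

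The call on Hist1h1c was kept when any single library was left out (log2 -1.47 to -1.26, edgeR adjusted p 0.00225 to 0.0394). It was lost with sex as a covariate (log2 -1.85, adjusted p 0.0563), where 0 of all 17475 genes passed in either direction, and without the 4 libraries lowest in Lyz2, where 1 library was left in each of the 2 groups (log2 -1.32, adjusted p 0.539). Against vehicle the log2 differences of the other 4 linker genes were -0.31 ± 0.43 for Hist1h1e, 0.04 ± 0.35 for Hist1h1d, 0.18 ± 0.46 for Hist1h1b and -0.31 ± 0.70 for Hist1h1a (SE), none past edgeR's test. A fall of 1 log2 unit lies within 2 SE of the values of Hist1h1e and Hist1h1a. Whether Hist1h1c differed from them in its change was not tested.

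The other H2B gene known for a polyadenylated form, Hist2h2be on chromosome 3, was at 10.6, 14.8 and 8.77 CPM with vehicle and 16.03, 11.6 and 17.1 with the combination. The groups overlapped, and the log2 difference was 0.39 ± 0.25 (SE, edgeR adjusted p 0.349), of the opposite sign to Hist1h2bc. Hist1h2bg had -1.03 ± 0.51 (edgeR adjusted p 0.204), and was called without the 4 libraries lowest in Lyz2 (log2 -2.72, adjusted p 0.022). Hist1h2bj had -0.75 ± 0.36 (adjusted p 0.196), and its combination libraries, at 2.33 to 2.702 CPM, lay below those with vehicle, at 3.92 to 4.51. Of the H3 genes Hist1h3c had -0.41 ± 0.35, Hist1h3g -0.17 ± 0.51 and Hist1h3i -0.53 ± 0.87. Of the H4 genes besides Hist1h4i, Hist1h4n had -0.45 ± 0.58, Hist1h4k -0.02 ± 0.88 and Hist4h4 on chromosome 6 -0.44 ± 0.81. On chromosome 11 Hist3h2a had -1.13 ± 0.70 and Hist3h2ba 0.36 ± 0.74. None of these passed edgeR's test, and with SEs up to 0.88 a change of 2-fold was not detectable in several of them.

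**Figure D3:**
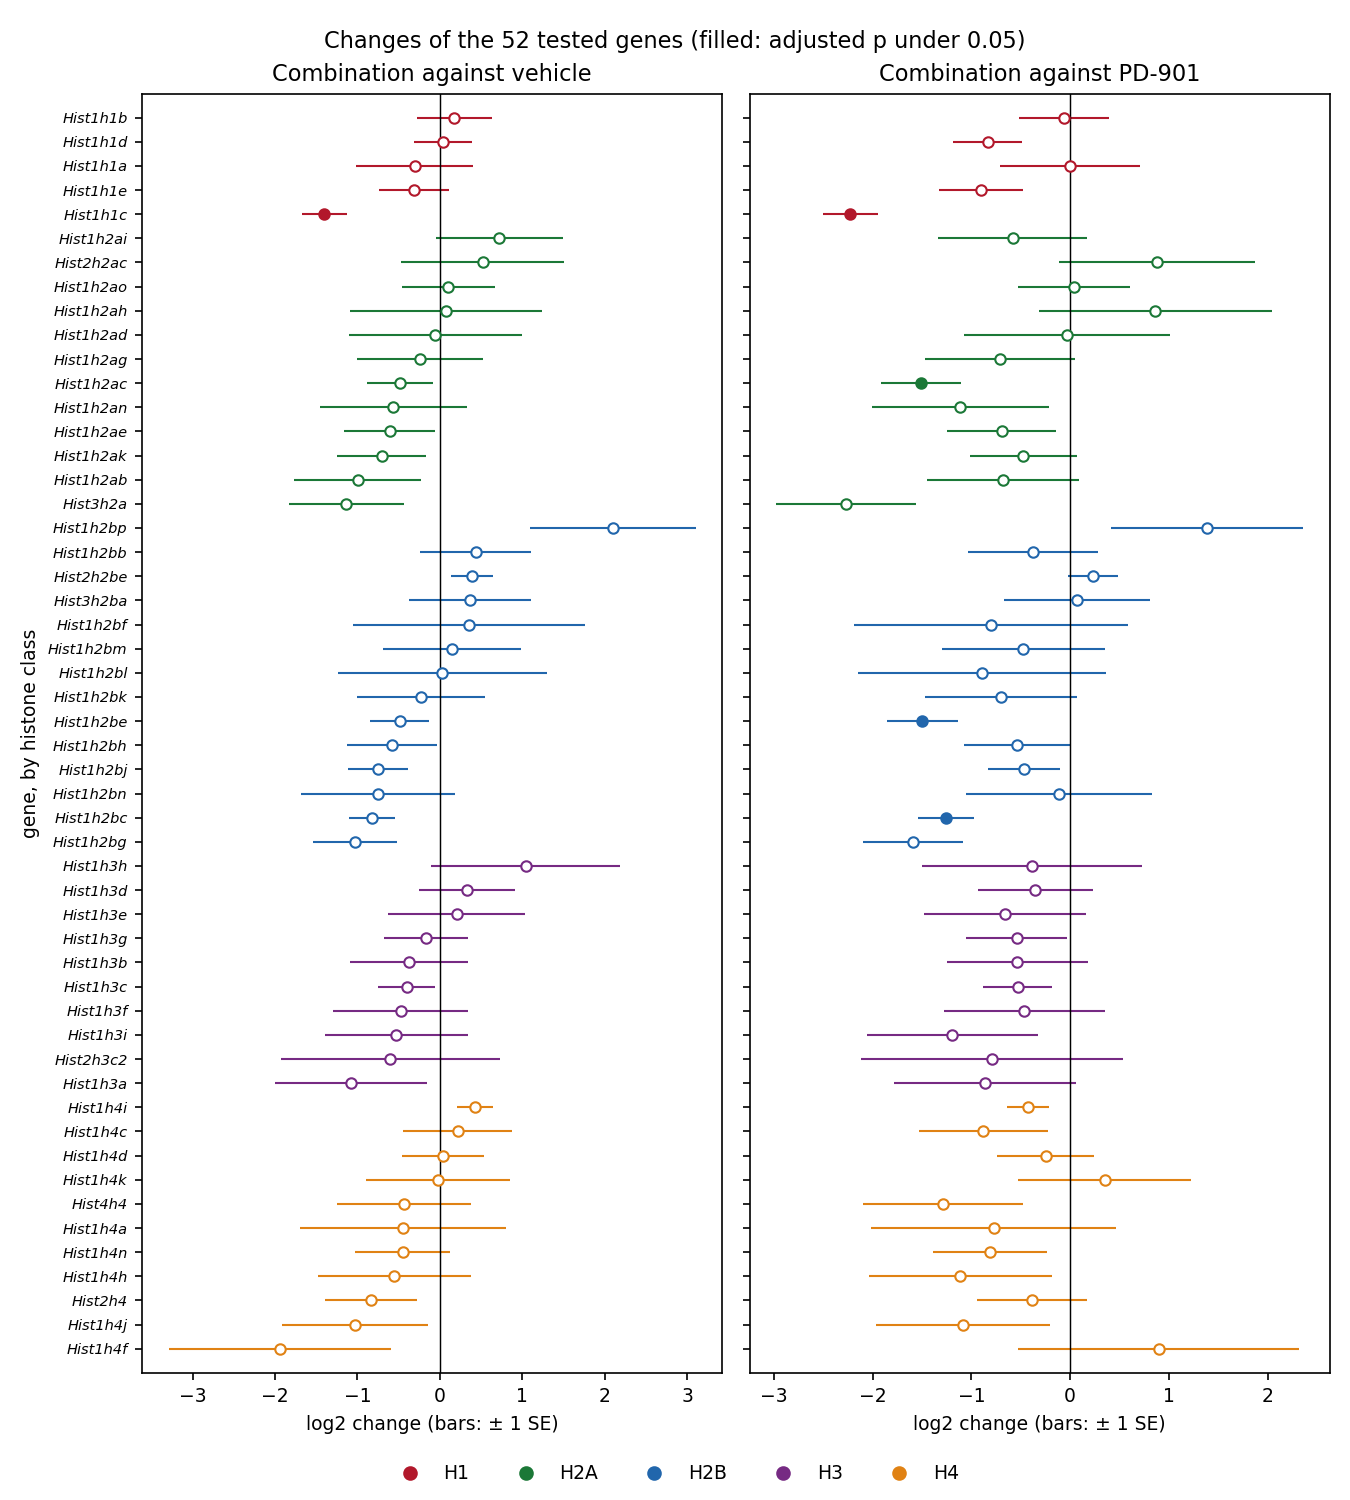
Log2 change of each of the 52 tested genes with both drugs, against vehicle (left) and against PD-901 (right). Colours are histone classes, bars are 1 SE and filled points passed edgeR's adjusted p of 0.05. Only Hist1h1c is filled on the left, and 4 genes are filled on the right, where 44 of 52 lie below 0.

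Adding 5-azacitidine to PD-901 was followed by lower levels of 4 clustered histone genes, where 5.12% of all genes were called lower and 1.69% higher in edgeR's test, and no member was higher. They were the linker gene Hist1h1c, the H2A gene Hist1h2ac and the H2B genes Hist1h2bc and Hist1h2be. Hist1h1c fell by 2.23 ± 0.28 (SE) on the log2 scale, 4.68-fold (adjusted p 0.00193), from 199 ± 92.7 to 42.5 ± 0.79 CPM. The changes of 44 of 52 members were negative, all 10 of the H3 genes and all 5 of the linker genes among them, with a median of -0.56 against 0.01 over all genes. At an unadjusted p under 0.05, 7 members were lower and 0 higher, beside 12.4% and 9.32% of all genes. Libraries did not overlap for 10 members lower and 1 higher, beside 15% and 12.7% of all genes. The members' calls were thus at a share near that of all genes. The PD-901 libraries are those of the comparison with vehicle, so a high PD-901 value enters both.

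Hist1h2ac was at 12.8, 6.47 and 8.52 CPM with PD-901 and 3.77, 4.49 and 1.54 with the combination. It fell by 1.51 ± 0.41 (SE) on the log2 scale (edgeR adjusted p 0.0358). Its neighbour Hist1h2bc was at 33.5, 21.8 and 18.5 CPM with PD-901 and fell by 1.26 ± 0.28 (adjusted p 0.0154). The 2 genes start 250 bases apart on opposite strands and share the printed promoter region. Hist1h2be was at 11.3, 7.38 and 6.12 CPM with PD-901 and 3.10, 2.91 and 2.76 with the combination, and fell by 1.499 ± 0.359 (adjusted p 0.0215). In all of these the groups did not overlap. PD-901 replicate 1 was the highest library of all 12 in each.

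The call on Hist1h1c held without any single library (edgeR adjusted p 0.000343 to 0.0182) and was lost without the 4 libraries lowest in Lyz2 (log2 -2.26, adjusted p 0.17). The other 3 calls were all lost without PD-901 replicate 1 (log2 -1.20 for Hist1h2ac, -0.96 for Hist1h2bc and -1.20 for Hist1h2be, adjusted p 0.113 to 0.202), without combination replicate 1 (log2 -1.63, -1.23 and -1.54 in the same order, adjusted p 0.0666 to 0.0906) and with Lyz2 as a covariate (log2 -1.57, -1.13 and -1.61, adjusted p 0.127 to 0.241). Under the last 2 the differences were thus about as large as with all libraries and no covariate. Hist1h2ac was also lost without PD-901 replicate 3 (0.0708), Hist1h2ac and Hist1h2be without combination replicate 3 (0.132 and 0.0848) and with sex as a covariate (log2 -1.77 and -1.61, 0.0547 and 0.0516), and Hist1h2bc and Hist1h2be without the 4 libraries lowest in Lyz2 (0.229 and 0.148).

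Outside the called genes, Hist3h2a was at 6.83, 2.20 and 1.64 CPM with PD-901 and 1.02, 0.10 and 1.06 with the combination. These did not overlap, and the log2 difference was -2.27 ± 0.71 (SE, edgeR adjusted p 0.0678), or -1.36 (adjusted p 0.435) without PD-901 replicate 1. Hist1h2bg had -1.59 ± 0.51 (adjusted p 0.0747) and Hist1h1d -0.84 ± 0.35 (adjusted p 0.172). Hist2h2be, at 10.2 to 15.4 CPM with PD-901 and 11.6 to 17.1 with the combination, had 0.23 ± 0.25. DESeq2 called Hist3h2a and Hist1h2bg in addition (adjusted p 0.0147 and 0.0169). In that comparison it called 1452 of 13066 genes lower.

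Adding PD-901 to 5-azacitidine gave no call among the members in edgeR's test, where 0.252% of all genes were higher and 1.07% lower. At an unadjusted p under 0.05, 1 member was higher, the H2B gene Hist1h2bp, and 1 lower, Hist1h1c, beside 6.72% and 9.05% of all genes. The log2 difference of Hist1h1c was -1.12 ± 0.27 (SE, adjusted p 0.0585), with no overlap of the libraries. DESeq2 called it (adjusted p 0.00199) and limma-voom did not. In that comparison DESeq2 called 760 of 13744 genes lower. Hist1h2bp was at 0, 0.81 and 0.18 CPM with 5-azacitidine and 2.65, 1.17 and 1.22 with the combination, a level of few reads. The median over the members was -0.10 against 0.00 over all genes, with 28 of 52 negative. It ran from -0.23 to 0.20 when single libraries were left out. Libraries did not overlap for 2 members higher and 4 lower, beside 9.1% and 9.54% of all genes.

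Whether the 2 drugs together departed from the sum of their single effects was tested as the interaction on the log2 scale. No member passed edgeR's test, and 0% of all genes passed in either direction. At an unadjusted p under 0.05, 6 members were below additivity and 0 above, where 6.21% and 4.49% of all genes were. They were Hist1h1c (log2 -1.94 ± 0.38 SE, adjusted p 0.105), Hist1h4i (-1.27 ± 0.31, adjusted p 0.143), Hist1h2be, Hist1h2ac, Hist1h2bc and Hist3h2a. DESeq2 called Hist1h1c and Hist1h4i (adjusted p 0.000456 and 0.017) and limma-voom none. Over all 16792 genes with an adjusted p, DESeq2 called 213 below additivity and 75 above. Without 5-azacitidine replicate 1 edgeR called the same 2 members (adjusted p 0.0181 and 0.0396). In that fit 132 of 18669 genes were called below additivity and 18 above. Hist1h1c and Hist1h4i got there differently. The combination libraries of Hist1h1c lay below all 3 other groups. The mean combination level of Hist1h4i lay between vehicle and the single drugs, and its libraries overlapped those of either drug alone.

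Of 21 genes for the transcription and end processing of histone mRNA, 6 rose with the combination against vehicle and 0 fell, with a median log2 change of 0.30. Slbp, which binds the stem-loop, was at 169, 187 and 136 CPM with vehicle and 319, 206 and 282 with the combination, and rose by 0.71 ± 0.17 (SE, edgeR adjusted p 0.0131). Npat, the coactivator of histone gene transcription, rose by 0.79 ± 0.19 (adjusted p 0.0134), Casp8ap2, a component of histone locus bodies, by 0.70 ± 0.18 (adjusted p 0.0185) and Eri1, which trims histone mRNA ends, by 0.49 ± 0.12 (adjusted p 0.0134). The other 2 were Cpsf2 and Ncbp1. Against PD-901, Casp8ap2 rose and Lsm10, a subunit of the U7 particle that cuts histone mRNA, fell by 0.96 (adjusted p 0.0325).

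Of 22 histone chaperones and deposition factors 13 rose and 1 fell with the combination against vehicle in edgeR's test, with a median log2 change of 0.47. Chaf1b, a subunit of the replication-coupled H3-H4 chaperone CAF-1, rose by 0.89 ± 0.15 (adjusted p 0.00333). Nasp, which stores soluble H3-H4 and also binds H1, and Hat1, which acetylates new H4, rose by 0.67 ± 0.15 each (adjusted p 0.0102). Daxx, a chaperone of the replication-independent variant H3.3, fell by 0.51 ± 0.13 (adjusted p 0.0215). Of 36 genes for S phase and DNA replication 31 rose and 0 fell, with a median of 0.65, Rrm2, a subunit of ribonucleotide reductase, by 0.81 ± 0.14 (adjusted p 0.0033). Of 19 tested genes for G2 and mitosis 8 rose and 0 fell, with a median of 0.47. Neither single drug against vehicle had a call in these 4 lists. Over all genes 5.78% were called higher and 7.97% lower in that comparison. Of the clustered histone genes 0 of 52 were called higher by edgeR or limma-voom, and 0 of the 30 to which DESeq2 gave an adjusted p. The members' median SE in that comparison was 0.73, against 0.284 over all genes. A rise of the S phase median, 0.65, is smaller than that, so the lack of calls cannot decide whether single members rose as far. How well mRNA ending in a stem-loop was captured is also not known.

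**Figure D4:**
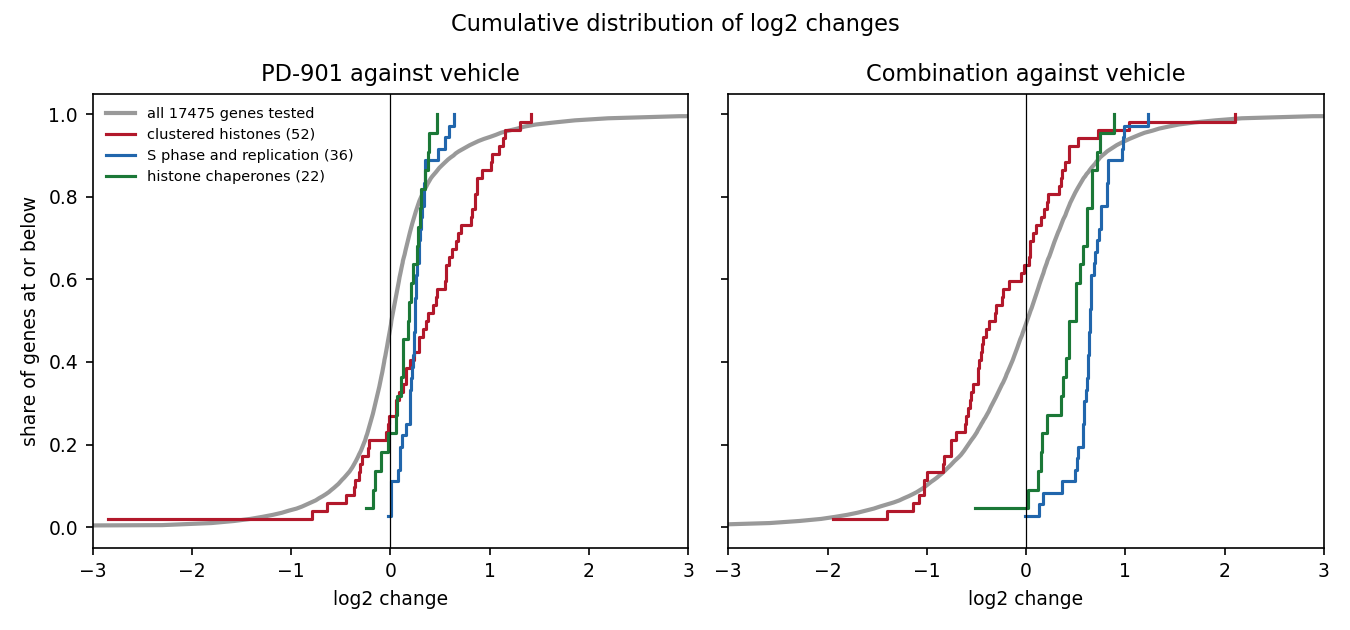
Share of genes at or below a given log2 change, of all genes tested, clustered histones, S phase genes and histone chaperones, for PD-901 (left) and the combination (right) against vehicle. The clustered histone curve (median 0.37 left, -0.34 right) lies to the right of all genes with PD-901 and to the left with the combination, where the S phase curve (median 0.65) lies furthest right.

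Genes listed as replication-independent histones are as a rule polyadenylated and not confined to S phase. Of these, 0 of 11 were called in either direction against vehicle with the combination, with a median log2 change of -0.05. The linker variant H1f0 had -0.38 ± 0.18 (SE, edgeR adjusted p 0.195), the H2A variants H2afz 0.23 ± 0.14 and H2afx -0.38 ± 0.14 (adjusted p 0.302 and 0.0802). Against PD-901 1 of the 11 was called lower and 0 higher, with a median of -0.13, where 5.12% and 1.69% of all genes were. The gene was H3f3b, which encodes H3.3 and fell by 0.82 (edgeR adjusted p 0.024). It averaged 789 CPM with vehicle and 1124 CPM with PD-901.

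Marker genes of several marrow lineages moved with the combination in the same comparison as Hist1h1c. Against vehicle 13 of 13 erythroid markers rose (summed 1350 to 2190 CPM with vehicle and 2390 to 7480 with the combination) and 5 of 5 promyelocyte markers rose (4510 to 5360 and 6020 to 9180 CPM). In edgeR's test 12 of 12 B cell precursor markers fell (499 to 572 and 95.6 to 258 CPM), 6 of 11 of mature neutrophils (31800 to 65300 and 25500 to 30100 CPM) and 7 of 7 of dendritic cells (1110 to 3750 and 507 to 557 CPM). Of the other lists, 3 of 7 monocyte, 2 of 7 stromal, 1 of 9 T and NK and 1 of 6 stem cell markers were called lower. Yet 6 of 9 T and NK and 5 of 6 stem cell markers had positive changes, with medians of 0.35 and 0.27. Of the megakaryocyte markers 0 of 5 tested were called. Against PD-901 11 of 12 B cell precursor and 8 of 11 neutrophil markers fell, and 0 of 13 erythroid markers were called. No marker was at 0 in all libraries. Their part in the histone changes was not tested, and in whole marrow fewer cells of a type cannot be told apart from less RNA per cell.

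The members were also divided by where their annotated transcripts end. In 21 members the annotated transcript runs 100 bases or more past the stem-loop, in 19 it ends within 100 bases of it, and in 14, Hist1h2bc and Hist2h2be among them, no stem-loop was found. Several of the 14 have short annotated transcripts, such as Hist1h2ai with 393 bases, Hist1h2bn with 381 and Hist1h4k with 312. Where an annotated transcript stops before the stem-loop the search cannot find it, so the genes of the third set need not lack one. The first set held 73.4% of the member counts, the second 10.2% and the third 16.5%, and Hist1h1c alone held 44.1%. Hist1h1c runs 840 bases past its stem-loop and is 1 of 11 members with the poly(A) signal AATAAA in the last 40 bases, which, Hist1h1c included, held 54.8% of the counts. The median log2 change against PD-901 with the combination was -0.80 in the first set, with 3 of the 4 called genes and 20 of 21 negative, -0.53 in the second with 14 of 18 negative, and -0.38 in the third with 10 of 13 negative. The medians of PD-901 against vehicle were 0.59, 0.26 and 0.23. The difference between the sets was not tested, and the median level was 2.26 CPM in the first set against 1.06 in each of the others, but 1.79, 2.25 and 2.699 CPM per kb in the order of the sets.

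Close sequence copies bound what can be said of single genes. Of the 54 members 5 shared no stretch of 100 bases with another annotated gene, 31 shared under 50% of such stretches and 18 shared 50% or more. Hist1h1c shared 5.1%, Hist1h2ac 8.1%, Hist1h2be 12.1%, Hist1h4i 15.1% and Hist1h2bc 25.4%, so most of the sequence of each is its own. How reads that fit several genes were counted is not stated in the labels. Of the 7 genes with 0 counts 5 shared all their stretches with other genes, and what part this has in their 0 was not tested. Exons of 4 members overlapped another gene on the same strand, those of Hist1h1e and Hist1h2be each other, and 13 members overlapped a gene on the opposite strand, so their counts are uncertain to that extent.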

How the data were processed

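RNA of 12 mice was sequenced in pairs of reads, and the authors deposited raw read counts per gene, not normalized. Per the submitters' processing notes they used genome build mm10 (GRCm38), the aligner STAR 2.7.2a and, from Subread 1.6.5, featureCounts. Strand setting and handling of multi-mapping reads: not given in the sources used here. The analysis used edgeR 4.0.16 in R 4.3.3, with genes kept by filterByExpr (minimum count 10, minimum total 15), TMM scaling, robust quasi-likelihood F tests with 4 group means over 12 libraries (8 residual degrees of freedom), two-sided, and Benjamini-Hochberg adjustment over 17475 genes in each of 6 contrasts. The code was tested on simulated data. SEs are those of the log2 change, derived from the test as the absolute log2 change divided by the square root of the F statistic. CPM per kb uses the exon length in the table. Libraries of a group were not duplicates (their chi-square over its degrees of freedom was 19.9 to 71.2), and the common biological coefficient of variation was 0.328. The groups' samples are separate mice, per the labels.

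The members and all gene lists were chosen with earlier results of these data known. Named members are those called in a contrast, or the 3 with the lowest p where none was, the 3 with the most CPM per kb in each class, and 13 genes named whatever their values. Any other member was picked with its values in view. Alternatives were DESeq2 1.42.0 and its size factors, limma-voom (limma 3.58.1), other count filters, only the groups compared, covariates for sex (Xist above 10 CPM) and Lyz2, each library left out, and, added after seeing the data, leaving out the 4 libraries lowest in Lyz2. Sequences came from GENCODE M21 transcripts and RefSeq promoter windows (GRCm38.p6). The SDs are between the 3 mice of a group, and the SEs include the spread between mice as well as counting error.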

Additional observations from a re-analysis of the deposited data

How the results depend on the processing

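Over 25 named members, 3081 log2 differences were recomputed under the alternatives. Of these 2874 kept their direction and side of the threshold, 159 that passed the test under neither setting turned in sign, 19 lost a call, 29 gained one and 0 called values turned in sign. Without the low-count filter 34450 genes were tested. Against vehicle edgeR called 2 members higher with PD-901 (32 of all genes) and 1 with 5-azacitidine (225 of all genes). With the combination it called 3 members lower against vehicle, 6 against PD-901 and 1 against 5-azacitidine. Of all genes 1615, 1253 and 704 were lower in the same order. It called 2 members below additivity (288 of all genes). DESeq2 called 1 higher with 5-azacitidine against vehicle (291 of all 12729 genes with an adjusted p). With the combination it called 2 lower against vehicle (1953 of 13066 genes), 6 against PD-901 (1452 of 13066) and 1 against 5-azacitidine (760 of 13744). It called 2 below additivity (213 of 16792 genes). The stricter filter gave 1 call lower against 5-azacitidine, where fewer genes were tested and 294 of 13351 were called lower. Fitting only the groups compared gave 2 lower for the combination against vehicle (1266 of 15510 genes) and 5 against PD-901 (1003 of 15955 genes). With sex as a covariate there were 0 lower against vehicle, where 0 of all 17475 genes were called. There were 2 lower against PD-901 (486 of all genes) and 1 against 5-azacitidine (167 of all genes). With Lyz2 as a covariate 1 was lower against PD-901 (144 of 17475 genes). Leaving out the 4 libraries lowest in Lyz2 left the combination 1 library. In that setting the members' median log2 difference with the combination was -0.77 against PD-901 and -0.55 against vehicle. Leaving out single libraries gave 1 to 2 lower for the combination against vehicle, 1 to 5 against PD-901 and 0 to 1 against 5-azacitidine, and 0 to 2 below additivity. Of all genes 518 to 1642, 326 to 1136, 0 to 535 and 0 to 132 were called so, in the same order. The causes were not tested.

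Without TMM scaling the combination level of Hist1h1c was 44.8 CPM and of Hist1h1d 5.39 CPM, the H1 sum with the combination 57.6 CPM and the H2B sum with vehicle 55.1 CPM. Without the most counted gene of a class the sums, in the order vehicle, PD-901, 5-azacitidine and combination, were 12.7, 19.2, 11.9 and 12.1 CPM for H1 and 37.2, 48.1, 31.4 and 34.9 for H2B. They were 13.4, 16.2, 13.6 and 10.8 CPM for H4. For H2A they were 14.5, 16.9 and 10.03 CPM in the first 3 groups, and for H3 11.8 CPM with the combination. No paired analysis was possible because the labels give no replicate numbers that groups share. Depth limits most members, which have few counts.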
